A study of Mus musculus with 12 samples.

Results

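Transcription factors that are known for making and keeping mesenchymal cells, Snai1, Snai2, Twist1, Twist2, Zeb1, Zeb2, Prrx1, Prrx2, Runx1 and Runx2, were followed in mouse skin fibroblasts by RNA sequencing. The genes were chosen by name, as 5 pairs of paralogues, and make up 10 of the 21556 genes counted. All of them had a mean above 1 RPKM (reads scaled to exon length and library total, a level that can be compared between genes) in every group, so none was lost to the filter on low values.

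The cells were primary fibroblasts grown from abdominal mouse skin, either wild-type (WT, strain C57BL/6) or lacking functional Nox4, an NADPH oxidase that produces hydrogen peroxide (Nox4 KO, strain B6.129-Nox4tm1Kkr/J). Both genotypes were starved of serum and then kept for 24 h with 10 ng/ml TGF-β2 or without it (control), which gave 4 groups of 3 libraries: WT control, WT TGF-β2, KO control and KO TGF-β2. The Nox4 allele is constitutive, so the KO cells and the animals they came from had never had the intact gene. The sources used here call the replicates biological but do not say whether they came from separate mice or cultures, so the p-values measure the spread between these libraries, which may be partly technical.

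These factors act in pairs of related proteins. SNAI1 and SNAI2 are zinc-finger repressors that bind E-box sequences and silence epithelial genes such as the one for E-cadherin, and ZEB1 and ZEB2 bind similar E-boxes through clusters of zinc fingers at both ends of the protein. TWIST1 and TWIST2 are basic helix-loop-helix (bHLH) proteins of mesoderm and dermis, PRRX1 and PRRX2 are paired-related homeodomain proteins of limb, facial and dermal mesenchyme, and RUNX1 and RUNX2 are runt-domain proteins best known from blood and bone. In epithelial cells TGF-β is known to raise several of them during epithelial-mesenchymal transition (EMT). Fibroblasts are mesenchymal from the start, and the comparison here asks what TGF-β2 does to the factors in cells that already express them.

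Promoter sequence from RefSeq (GRCm38.p6) was at hand for 8 of the 10 genes, all except Snai2 and Zeb1, as windows from 250 bases before to 50 bases after each annotated start. The sequences shown are places in these windows where a motif of one of the families, or the SMAD box through which TGF-β signals are read, was found on either strand. Each is given 5′ to 3′ on the strand of its gene with a copy of the motif in capitals. The RUNX motif TGTGGT (reverse complement ACCACA) was found at the start sites of both Runx genes. The Runx1 and Runx2 stretches 28 and 23 bases after their starts were identical at 23 of 24 bases. Each of them also held a further ACCACA, left in lower case, 36 bases after the Runx1 start and 31 bases after the Runx2 start.

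Runx1, chr16:92826032-92826055, minus strand: tcataaacaACCACAgaaccacaa

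Runx2, chr17:44814590-44814613, minus strand: tcacaaacaACCACAgaaccacaa

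Runx2, chr17:44814693-44814716, minus strand: aggtcacaaACCACAtgattctgt

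The Runx1 window held 2 copies of TGTGGT and the Runx2 window held 3. Of 32841 promoter windows of the same length, 16.8% held the motif and 1.81% held 2 or more copies. The Runx1 window is that of the start farthest upstream, and the window of a second annotated Runx1 start, farther downstream, held no copy. The reads were counted per gene and do not show which start was used.

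The SNAI and ZEB type E-box CAGGTG (reverse complement CACCTG), held by 20.2% of all windows, was found 126 bases before the start of Snai1 and 136 bases before that of Runx1. The SMAD box CAGAC, held by 49.6% of all windows, was found 9 bases before the start of Twist1 and 19 bases before and 38 bases after that of Prrx1. The Prrx1 window also held the homeodomain motif TAATTA, found in 5.29% of windows, 173 bases before its start. The windows of Twist2, Prrx2 and Zeb2 held none of these 4 motifs. An E-box of any kind, CANNTG, which includes CAGGTG, was in 72.3% of all windows and in 3 of the 12 windows of these genes, those of Snai1, Runx1 and Runx2. A match is only a description of the letters in these windows.

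Snai1, chr2:167538060-167538083, plus strand: gcccaggcgCACCTGctccggtct

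Runx1, chr16:92826196-92826219, minus strand: gggggagggCAGGTGgagggcagg

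Twist1, chr12:33957653-33957676, plus strand: cccaactctCAGACacctcgcggg

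Prrx1, chr1:163313655-163313678, minus strand: tttcttaatCAGACtgttttttcg

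Prrx1, chr1:163313809-163313832, minus strand: agggaatgaTAATTAgacctttat

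The libraries held 35118344 to 43796260 counted reads each. The second WT TGF-β2 library and the third KO library under both conditions lay farthest from their groups, with a chi-square per gene of 70.9 to 153.8 against the other replicates, where the 2 remaining replicates of the same groups differed by 26.1 to 30.3. The third WT control library differed from the others of its group by 53.25 and 65.3, where those differed by 15.05. Calls that turn on the farthest libraries are given with and without them. Nox4 itself was counted in every library, with 203 to 398 reads in WT control, 1314 to 2471 in WT TGF-β2, 102 to 207 in KO control and 782 to 1175 in KO TGF-β2. A count over the whole gene leaves unknown which exons the reads came from, and so does not check the deletion. All 10 dermal fibroblast markers were above 1 RPKM, with a summed level of 5416 to 8035 RPKM, whereas the epithelial cadherin gene Cdh1 reached at most 0.0206 RPKM. Some lists of other cell types moved with TGF-β2. Of 8 skeletal muscle markers 2 (Des and Acta1) were above 1 RPKM and Myf5 was at 0, with a summed level of 42.0 to 109.6 RPKM in control and 255.8 to 615.3 RPKM in TGF-β2 libraries. Of 6 mural cell markers 2 (Notch3 and Myh11) were above 1 RPKM, with a sum of 40.7 to 53.2 RPKM in control and 17.4 to 38.6 RPKM in TGF-β2 libraries. Adipocyte marker sums fell from 3.99 to 7.86 RPKM to 1.21 to 2.43 RPKM in WT, and from 1.6 to 6.10 to 0.81 to 1.37 RPKM in KO. Endothelial sums fell from 2.56 to 4.38 to 1.69 to 2.48 RPKM in WT, and from 3.06 to 5.54 to 2.42 to 2.95 RPKM in KO. Bone and cartilage sums fell in WT (7.80 to 8.37 to 3.74 to 5.16 RPKM) and overlapped in KO. The part of these lists in the results was not tested. Reads of bulk cultures cannot tell fewer cells of a type from less RNA per cell.

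TGF-β2 did not raise these factors as a group. In WT cells 1 of the 10 rose (Runx1) and 4 fell (Snai2, Twist1, Prrx1 and Prrx2) at an adjusted p below 0.05 in edgeR's quasi-likelihood test, where 12.4% of the 10743 genes tested rose and 11.7% fell. In KO cells 2 rose (Runx1 and Runx2) and 5 fell (the same 4 and Twist2), where 15.1% of 10809 genes rose and 14.9% fell. With a fold limit of 2 as well, 1 factor rose and 3 fell in WT, against 2.72% and 4.96% of all genes, and again 1 rose and 3 fell in KO, against 2.22% and 4.58%. The median log2 fold change of the 10 factors was -0.39 in WT and -0.36 in KO, beside 0.02 and -0.01 over all genes tested. Scaled by library totals alone, 39.4% of the genes that passed in WT and 33.0% in KO were higher, in place of 51.5% and 50.5%, while the same factors passed in the same directions. The levels of 6 factors in WT and 7 in KO did not overlap between TGF-β2 and control, a pattern shown by 45.2% and 48.5% of all genes.

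**Figure D1:**
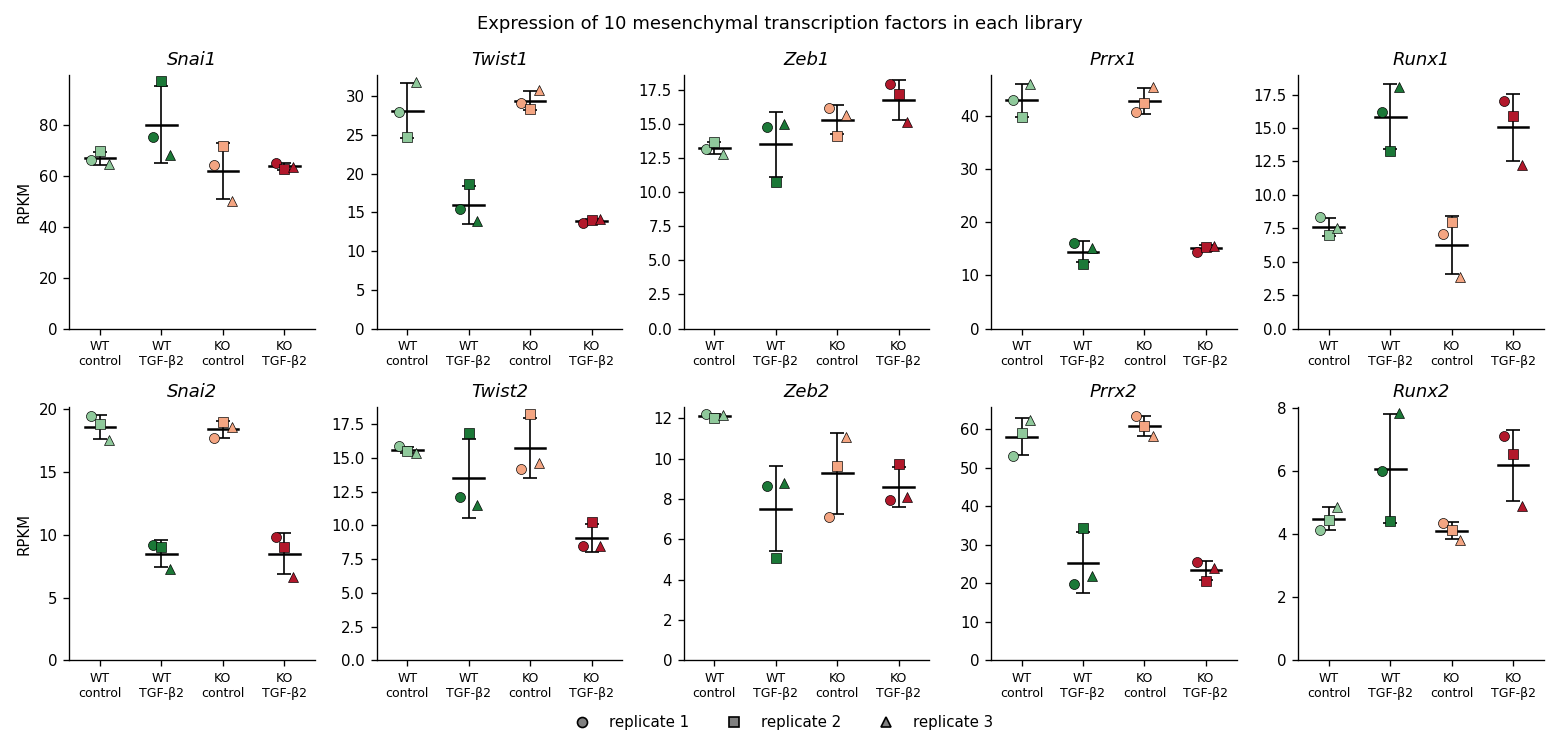
RPKM of each of the 10 factors (vertical axes, linear from 0) in WT and Nox4 KO cells without (control) and with TGF-β2. Symbols are libraries, with 1 symbol shape per replicate number, horizontal bars are means and whiskers are SD (n = 3). Prrx1, Prrx2, Snai2 and Twist1 were lower and Runx1 higher in every TGF-β2 library than in any control library of the same genotype.

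The homeodomain genes Prrx1 and Prrx2 gave the largest decreases. Prrx1 (ENSMUSG00000026586, GRCm38 chr1:163245119-163313710, minus strand) stood at 43.0, 39.8 and 46.1 RPKM in the WT control libraries and at 16.1, 12.2 and 15.2 RPKM after TGF-β2. In KO it stood at 40.8, 42.4 and 45.5 RPKM in control and 14.5, 15.3 and 15.6 RPKM after TGF-β2. Prrx1 was therefore 2.83-fold lower in WT (log2 fold change -1.50, SE 0.14, adjusted p = 0.00136 by edgeR) and 2.67-fold lower in KO (-1.42, SE 0.06, adjusted p = 0.000857), with a wide gap between the groups in both genotypes. In KO its p-value ranked 4th of 10809 genes.

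Prrx2 (ENSMUSG00000039476, GRCm38 chr2:30834972-30881251, plus strand) was expressed at 53.1, 59.0 and 62.4 RPKM in WT control and at 19.8, 34.5 and 22.0 RPKM in WT TGF-β2. The second WT TGF-β2 library was the highest of its group but stayed below every control. In KO, Prrx2 went from 63.6, 60.8 and 58.3 RPKM to 25.5, 20.6 and 24.1 RPKM. It was 2.21-fold lower in WT (log2 fold change -1.14, SE 0.19, adjusted p = 0.00815 by edgeR) and 2.46-fold lower in KO (-1.30, SE 0.09, adjusted p = 0.00154). Since both paralogues fell, the ratio of Prrx1 to Prrx2 overlapped between groups, with a mean of 0.741 in WT control, 0.620 in WT TGF-β2, 0.706 in KO control and 0.653 in KO TGF-β2.

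The Snail genes parted. Snai1 (ENSMUSG00000042821, GRCm38 chr2:167538195-167542814, plus strand), the most abundant of the 10 factors by mean in every group, stood at 66.2, 69.7 and 64.5 RPKM in WT control and 75.0, 97.2 and 68.0 RPKM in WT TGF-β2. In KO it stood at 64.3, 71.6 and 49.9 RPKM in control and 64.9, 62.5 and 63.5 RPKM after TGF-β2. The groups overlapped in both genotypes, and the difference did not pass in WT (log2 fold change 0.32, SE 0.13, adjusted p = 0.121 by edgeR) or KO (0.12, SE 0.14, adjusted p = 0.546). The 95% intervals, 0.01 to 0.63 in WT and -0.22 to 0.47 in KO, lay below a 2-fold increase. Without the second WT TGF-β2 library the WT value was 0.15 with an adjusted p of 0.2115 by edgeR.

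Snai2 (ENSMUSG00000022676, GRCm38 chr16:14705852-14709385, plus strand) fell instead. Its level was 19.4, 18.8 and 17.6 RPKM in WT control and 9.19, 9.04 and 7.29 RPKM in WT TGF-β2, and 17.7, 19.0 and 18.6 RPKM in KO control and 9.81, 9.04 and 6.66 RPKM in KO TGF-β2. These are decreases of 2.10-fold in WT (log2 fold change -1.07, SE 0.12, adjusted p = 0.00236 by edgeR) and 2.04-fold in KO (-1.03, SE 0.15, adjusted p = 0.00702), with no overlap between groups. Snai1 was accordingly 3.59 times as abundant as Snai2 in WT control (range 3.40 to 3.70) and 9.42 times after TGF-β2 (8.17 to 10.8), and in KO the ratio went from 3.36 (2.68 to 3.77) to 7.68 (6.61 to 9.52).

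Twist1 (ENSMUSG00000035799, GRCm38 chr12:33957671-33959829, plus strand), needed in the embryo for skull and limb mesenchyme, was lower after TGF-β2 in both genotypes. Its WT levels were 27.9, 24.7 and 31.9 RPKM in control and 15.4, 18.7 and 13.9 RPKM after TGF-β2. Its KO levels were 29.1, 28.4 and 30.8 RPKM in control and 13.7, 14.1 and 14.1 RPKM after TGF-β2. The decrease was 1.69-fold in WT (log2 fold change -0.76, SE 0.13, adjusted p = 0.00885 by edgeR) and 1.99-fold in KO (-0.99, SE 0.05, adjusted p = 0.00101), so that the fold limit of 2 was missed in both.

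Twist2 (ENSMUSG00000007805, GRCm38 chr1:91801461-91848028, plus strand), the dermal family member, passed in KO only, but its response was not shown to differ between the genotypes. In WT it stood at 15.8, 15.5 and 15.4 RPKM in control and 12.1, 16.8 and 11.5 RPKM after TGF-β2, where the second TGF-β2 library was above all controls and the other TGF-β2 libraries below them. In KO it stood at 14.2, 18.3 and 14.6 RPKM in control and 8.45, 10.3 and 8.44 RPKM after TGF-β2, with no overlap. The log2 fold change was -0.15 in WT (SE 0.14, adjusted p = 0.458 by edgeR) and -0.71 in KO (SE 0.14, adjusted p = 0.0151), and the difference between these responses was -0.52 (SE 0.21, unadjusted p = 0.0281, adjusted p = 0.854). Without the second WT TGF-β2 library the WT value was -0.34 with an adjusted p of 0.0188, and without the first KO TGF-β2 library the KO value was -0.66 with an adjusted p of 0.052. An antisense gene, Gm29100, overlaps 1477 of the 3174 exon bases of Twist2, and whether the counting used strand is not given in the sources used here, so that reads of the pair cannot be told apart. The same holds for the smaller exon stretches that antisense genes share with Zeb2 (Zeb2os), Runx1 (Gm26626, 106 bases) and Runx2 (Runx2os1, 519 bases). Twist1 exceeded Twist2 by a mean ratio of 1.81 in WT control, 1.20 in WT TGF-β2, 1.90 in KO control and 1.55 in KO TGF-β2.

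**Figure D2:**
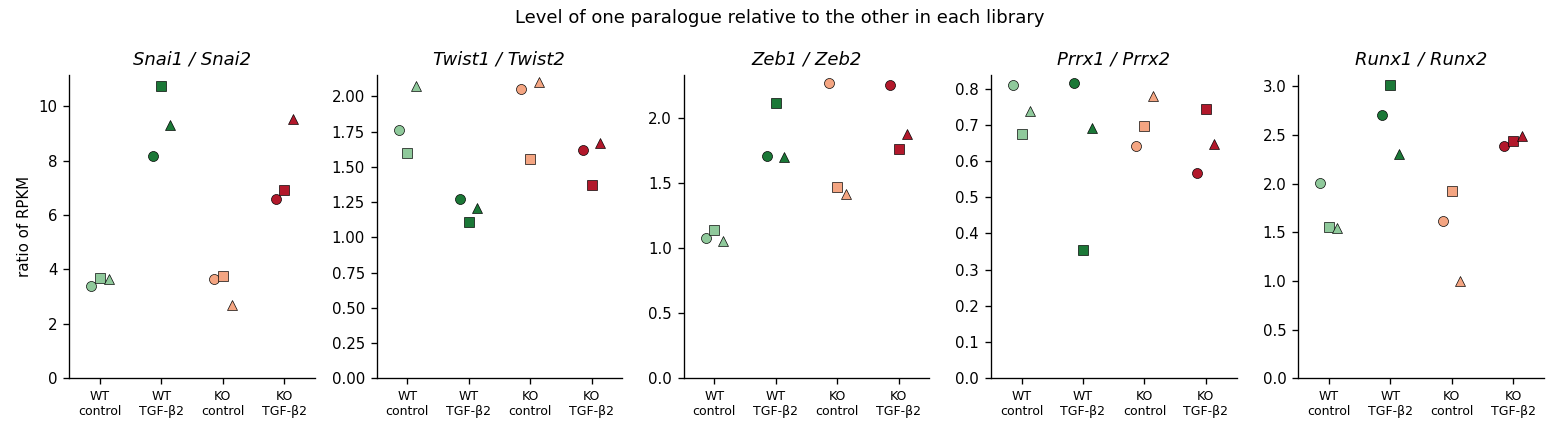
Ratio of the RPKM of the first to the second paralogue (vertical axes, linear from 0) in each library of the 4 groups, with symbol shapes for replicate numbers. The ratio of Snai1 to Snai2 was 2.68 to 3.77 in the control libraries and 6.61 to 10.8 in the TGF-β2 libraries, while that of Prrx1 to Prrx2 overlapped between groups.

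Neither Zeb gene passed in either genotype. Zeb1 (ENSMUSG00000024238, GRCm38 chr18:5591860-5775467, plus strand) was at 13.1, 13.7 and 12.8 RPKM in WT control and 14.8, 10.8 and 15.0 RPKM in WT TGF-β2, where the second library was the lowest. In KO it was at 16.2, 14.1 and 15.6 RPKM in control and 17.95, 17.2 and 15.1 RPKM after TGF-β2. Neither difference passed (log2 fold change 0.10, SE 0.16, adjusted p = 0.69 by edgeR in WT and 0.22, SE 0.09, adjusted p = 0.111 in KO). The KO value passed with the replicate number as a block (0.22, adjusted p = 0.0415) and without the third KO TGF-β2 library (0.29, adjusted p = 0.0355). Without the second WT TGF-β2 library the WT value was 0.22 and did not pass (adjusted p = 0.0518 by edgeR).

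Zeb2 (ENSMUSG00000026872, GRCm38 chr2:44983632-45117395, minus strand) was at 12.2, 12.0 and 12.2 RPKM in WT control and at 8.65, 5.10 and 8.81 RPKM in WT TGF-β2, with no overlap. In KO the values overlapped, with 7.13, 9.63 and 11.1 RPKM in control and 7.96, 9.76 and 8.08 RPKM after TGF-β2. The WT difference (log2 fold change -0.62, SE 0.22) had an adjusted p of 0.0893 in edgeR's quasi-likelihood test, of 0.0245 in DESeq2 and of 0.0371 in edgeR's exact test, and it was -0.42 with an adjusted p of 0.0059 without the second WT TGF-β2 library. With the replicate number as a block it was -0.67 with an adjusted p of 0.0477 by edgeR. The KO difference was -0.02 (SE 0.17, adjusted p = 0.94). The difference between the 2 responses did not pass (0.63, 95% interval -0.04 to 1.31, unadjusted p = 0.0631, adjusted p = 0.854). Zeb2 is also expressed in macrophages, and the 11 blood cell markers summed to between 14.3 and 127.2 RPKM per library. In WT control that sum was 48.4, 27.2 and 127.2 RPKM while Zeb2 stayed between 12.0 and 12.2 RPKM, and in WT TGF-β2 it was 36.6, 22.6 and 87.9 RPKM, with the lowest sum and the lowest Zeb2 level in the second library. In KO control the sum was 99.2, 35.4 and 21.9 RPKM where Zeb2 was at 7.13, 9.63 and 11.1 RPKM, and in KO TGF-β2 it was 70.9, 25.7 and 14.3 RPKM where Zeb2 was at 7.96, 9.76 and 8.08 RPKM. The part of these cells in the Zeb2 values was not tested.

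Of the runt-domain genes, Runx1 rose in both genotypes and Runx2 passed in KO only. Runx1 (ENSMUSG00000022952, GRCm38 chr16:92601466-92826149, minus strand) was at 8.34, 6.96 and 7.54 RPKM in WT control and 16.2, 13.3 and 18.1 RPKM in WT TGF-β2, a gap wider than the spread within either group. In KO it was at 7.07, 7.95 and 3.83 RPKM in control and 16.99, 15.9 and 12.2 RPKM after TGF-β2, where the third replicate was the lowest of both groups. Runx1 was 2.18-fold higher in WT (log2 fold change 1.12, SE 0.15, adjusted p = 0.0041 by edgeR) and 2.53-fold higher in KO (1.34, SE 0.30, adjusted p = 0.0208). The KO increase stayed between 1.07 and 1.56 on the log2 scale when libraries were left out singly, with an adjusted p of 0.0559, 0.0619 and 0.0763 without the first KO control, the first KO TGF-β2 or the second KO TGF-β2 library. Those fits did not use the replicate number. With it as a block the KO increase was 1.39 with an adjusted p of 0.00101 by edgeR. Runx1 is expressed in blood cells too. The summed blood cell markers were 48.4, 27.2 and 127.2 RPKM in WT control and 36.6, 22.6 and 87.9 RPKM in WT TGF-β2, and in KO 99.2, 35.4 and 21.9 RPKM in control and 70.9, 25.7 and 14.3 RPKM after TGF-β2. The part of blood cells in the Runx1 values was not tested.

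Runx2 (ENSMUSG00000039153, GRCm38 chr17:44495987-44814797, minus strand), the master regulator of osteoblasts, was the least abundant of the 10 by mean in every group. It was at 4.15, 4.47 and 4.87 RPKM in WT control and 6.00, 4.41 and 7.84 RPKM in WT TGF-β2, and the groups overlapped through the second TGF-β2 library. In KO it was at 4.36, 4.13 and 3.83 RPKM in control and 7.10, 6.53 and 4.91 RPKM after TGF-β2, without overlap. The log2 fold change was 0.50 in WT (SE 0.21, adjusted p = 0.134 by edgeR) and 0.68 in KO (SE 0.15, adjusted p = 0.0219). Without the second WT TGF-β2 library the WT value was 0.68 with an adjusted p of 0.0123, and without the third it was 0.28 with an adjusted p of 0.276. The KO value missed the threshold in 5 of 6 fits with 1 library left out, with an adjusted p of up to 0.0844. Those fits did not use the replicate number. With it as a block the KO value was 0.66 with an adjusted p of 0.00176 by edgeR. The response did not differ between genotypes beyond its error (0.21, 95% interval -0.42 to 0.83). Runx1 exceeded Runx2 by a mean ratio of 1.71 in WT control, 2.68 in WT TGF-β2, 1.51 in KO control and 2.44 in KO TGF-β2.

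In WT control the order of the 10 levels was Snai1, Prrx2, Prrx1, Twist1, Snai2, Twist2, Zeb1, Zeb2, Runx1 and Runx2, from 66.8 ± 2.64 RPKM to 4.50 ± 0.36 RPKM (SD, n = 3). The ranges of the libraries did not overlap between any neighbours in that order. After TGF-β2 Snai1 remained first, at 80.1 ± 15.3 RPKM, and Prrx2 followed at 25.4 ± 7.92 RPKM. Twist1 at 16.01 ± 2.45, Runx1 at 15.9 ± 2.41, Prrx1 at 14.5 ± 2.06, Zeb1 at 13.5 ± 2.38 and Twist2 at 13.5 ± 2.91 RPKM were then within each other's spread, above Snai2 at 8.50 ± 1.06 and Zeb2 at 7.52 ± 2.10 RPKM. In KO TGF-β2 cells Snai1 was likewise first at 63.6 ± 1.22 RPKM, followed by Prrx2 at 23.4 ± 2.51 RPKM.

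**Figure D3:**
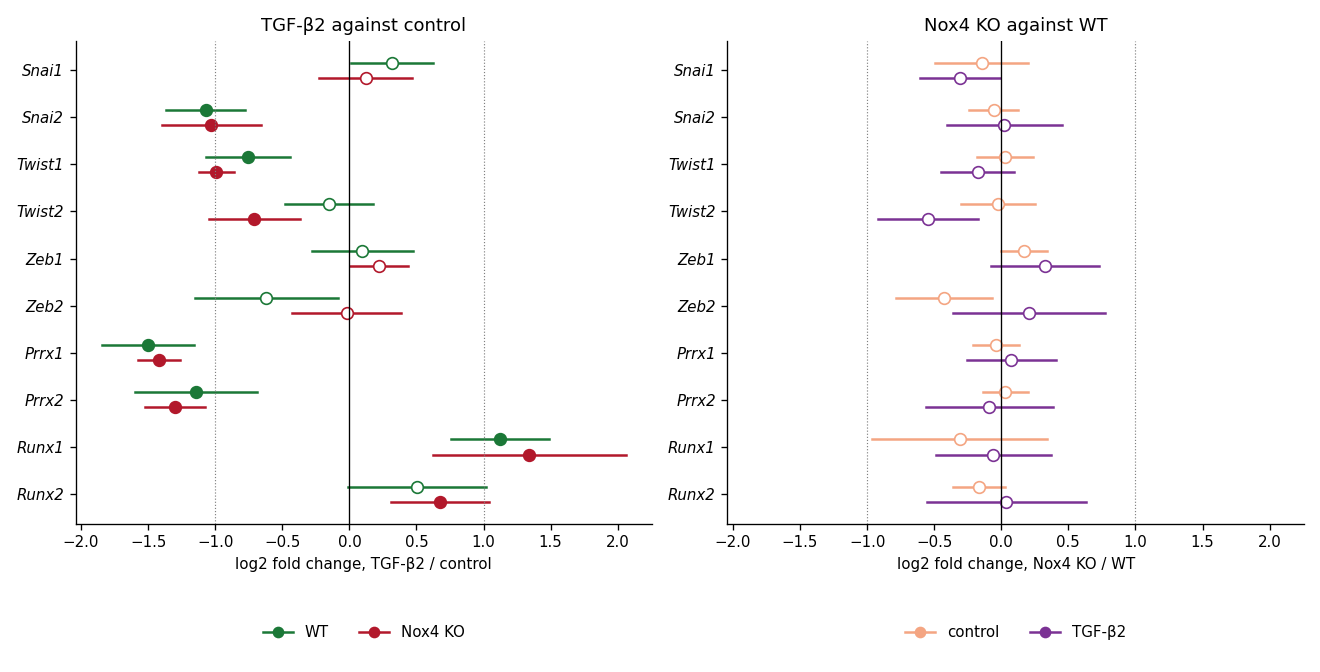
Log2 fold changes of the 10 factors (horizontal axes) with 95% intervals, for TGF-β2 against control in WT and Nox4 KO (left) and for Nox4 KO against WT in control and TGF-β2 cells (right). Filled circles passed an adjusted p below 0.05, open circles did not, and dotted lines mark 2-fold changes. On the left 5 WT and 7 KO circles are filled, and on the right none is.

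None of the 10 factors differed between KO and WT past the threshold. In control cells their log2 differences, KO relative to WT, lay between -0.43 (Zeb2) and 0.17 (Zeb1), with adjusted p-values of 0.828 to 0.977 in edgeR. Over all 10767 genes 0 (0%) passed in edgeR's quasi-likelihood test, whose smallest adjusted p was 0.423, 28 passed in DESeq2 and 17 in edgeR's exact test, none of them a factor of this set. An unadjusted p below 0.05 was given to 1 factor, Zeb2 (-0.43, 95% interval -0.78 to -0.07, unadjusted p = 0.0263), and to 5.54% of all genes. The levels of Zeb2 and Zeb1 did not overlap between the genotypes in control, as in 13.6% of all genes. The intervals were narrow for Prrx1 (-0.21 to 0.13), Prrx2 (-0.14 to 0.20), Snai2 (-0.24 to 0.13) and Twist1 (-0.18 to 0.24), and wide for Runx1 (-0.97 to 0.34).

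After TGF-β2 the differences lay between -0.55 (Twist2) and 0.33 (Zeb1), with adjusted p-values of 0.838 to 0.97. Again 0 (0%) of 10439 genes passed in edgeR's quasi-likelihood test, 16 passed in DESeq2 and 7 in edgeR's exact test, none of the 10 among them. Twist2 (-0.55, 95% interval -0.92 to -0.18, unadjusted p = 0.0106) and Snai1 (-0.31, -0.61 to -0.01, unadjusted p = 0.0465) were below an unadjusted p of 0.05, as were 3.23% of all genes. The levels of these 2 and of Zeb1 did not overlap between genotypes, as in 10.1% of all genes. Prrx1 differed by 0.07 (-0.26 to 0.41), Runx1 by -0.06 (-0.49 to 0.37) and Runx2 by 0.04 (-0.55 to 0.63).

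The responses to TGF-β2 were also compared directly, as the interaction of genotype and treatment over all 12 libraries. None of the 10 factors passed, and 0 (0%) of 10890 genes did in edgeR, with 6 in DESeq2. The differences, KO response minus WT response, ran from -0.52 for Twist2 to 0.63 for Zeb2. Twist2 alone had an unadjusted p below 0.05, as had 2.68% of all genes. For Prrx1 the difference was 0.12 (95% interval -0.24 to 0.48), for Snai2 0.08 (-0.36 to 0.52) and for Runx1 0.25 (-0.52 to 1.02), so that differences beyond about these bounds are outside the intervals while smaller ones could not be seen with 3 libraries per group. The comparisons between genotypes use the same libraries as those between treatments.

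The partners of these factors were described next. Of 24 partners and corepressors 23 were expressed, of which 3 rose and 4 fell in WT and 5 rose and 4 fell in KO, with a median log2 fold change of 0.04 and 0.01. Over all genes tested 12.4% rose and 11.7% fell in WT and 15.1% rose and 14.9% fell in KO. Ajuba, a LIM protein that links SNAI proteins to their corepressors, went from 19.7 to 39.3 RPKM in WT (log2 fold change 1.05, adjusted p = 0.00422 by edgeR) and from 21.9 to 35.7 RPKM in KO (0.79, adjusted p = 0.00271). Runx1t1, a corepressor known as a fusion partner of RUNX1 in leukaemia, fell from 1.803 to 0.638 RPKM in WT (-1.43, adjusted p = 0.00415) and from 1.33 to 0.569 RPKM in KO (-1.14, adjusted p = 0.00933). It passed the filter on low values through its control means alone. Tcf4, an E protein that pairs with TWIST proteins, fell by 1.02 in WT (adjusted p = 0.015) and by 0.55 in KO (adjusted p = 0.0435) on the log2 scale. The other E protein genes and the shared RUNX partner, named here after their values were seen, did not pass. Tcf3 gave 0.00 and -0.22, Tcf12 gave 0.01 and 0.20, and Cbfb gave 0.25 and 0.35 as log2 fold changes in WT and KO.

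The 4 Id genes encode inhibitors that bind E proteins and keep bHLH factors such as TWIST1 off DNA. In WT 2 of the 4 fell and in KO all 4 fell, with median log2 fold changes of -1.15 and -1.41. The share of all genes tested that fell was 11.7% in WT and 14.9% in KO. Id4 went from 22.7 to 3.15 RPKM in WT (log2 fold change -2.79, adjusted p = 0.000439 by edgeR) and from 21.6 to 2.62 RPKM in KO (-2.96, adjusted p = 0.00241). Id2 went from 17.7 to 4.83 RPKM in WT (-1.82, adjusted p = 0.00188) and from 19.9 to 5.11 RPKM in KO (-1.87, adjusted p = 0.0109). The most abundant, Id3 and Id1, named after their values were seen, gave -0.47 and -0.26 in WT without passing and fell by 0.90 and 0.96 on the log2 scale in KO.

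Of 33 other transcription factors of mesenchyme and EMT, 20 were expressed, of which 6 rose and 3 fell in WT and 3 rose and 4 fell in KO. Over all genes these shares were 12.4% and 11.7% in WT and 15.1% and 14.9% in KO. The median log2 fold changes of the 20 were -0.07 and -0.05. Foxs1, a forkhead gene, rose from 15.0 to 41.1 RPKM in WT (1.51, adjusted p = 0.00432 by edgeR) and stood at 15.6 and 32.1 RPKM in KO (1.12, adjusted p = 0.0943). Meox1, a mesodermal homeobox gene, rose from 0.184 to 1.31 RPKM in WT (2.88, adjusted p = 0.00102) and from 0.204 to 1.10 RPKM in KO (2.49, adjusted p = 0.0184). It passed the filter of 1 RPKM through its TGF-β2 means alone, and a gene as low that did not rise was not tested. Klf4 fell from 42.5 to 17.3 RPKM in WT (-1.23, adjusted p = 0.00646) and from 45.5 to 16.8 RPKM in KO (-1.35, adjusted p = 0.0353). Osr2, of limb and palate mesenchyme, fell in KO (-1.74, adjusted p = 0.0474) and had -2.11 in WT with an adjusted p of 0.0558. It passed the filter through its control means alone.

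The genes that the SNAI, TWIST and ZEB proteins are known to repress were mostly silent. Of 30 epithelial genes 5 passed the filter on low values in WT and 6 in KO, and 2 rose and 1 fell in each, though the gene that fell was not the same. The shares over all genes tested were 12.4% higher and 11.7% lower in WT and 15.1% and 14.9% in KO. Esrp2, an epithelial splicing regulator, rose from 2.06 to 4.67 RPKM in WT (log2 fold change 1.24, adjusted p = 0.00869 by edgeR) and from 1.89 to 3.63 RPKM in KO (1.02, adjusted p = 0.0158). Jup, which encodes the junction protein plakoglobin and was named after its values were seen, also rose (0.92 and 0.77, adjusted p = 0.0246 and 0.0224). Krt19 fell in KO (-1.12, adjusted p = 0.0143) and gave -0.52 in WT (adjusted p = 0.269). Cdh3, named after its values were seen, fell in WT (-0.63, adjusted p = 0.0264) and gave -0.65 in KO (adjusted p = 0.158). Among 10 keratinocyte markers the only one above 1 RPKM was Sfn, and the summed level of these markers was 2.17 to 2.78 RPKM in control and 8.54 to 16.2 RPKM in TGF-β2 libraries, with Krt5 at no more than 0.133 and Krt14 at no more than 0.161 RPKM. The part of that rise in the epithelial values was not tested.

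Of 28 mesenchymal genes all were expressed in WT and 27 in KO. In WT 7 rose and 4 fell, and in KO 10 rose and 3 fell, with median log2 fold changes of 0.09 and 0.29, beside 12.4% higher and 11.7% lower of all genes in WT and 15.1% and 14.9% in KO. Pdgfra, the receptor of dermal fibroblasts, fell from 39.9 to 3.79 RPKM in WT (-3.32, adjusted p = 0.000717 by edgeR) and from 27.7 to 3.32 RPKM in KO (-2.98, adjusted p = 0.00128). S100a4 fell by 1.35 in WT (adjusted p = 0.0378) and by 1.31 in KO (adjusted p = 0.0199) on the log2 scale. The fibronectin receptor subunit Itga5 rose by 1.46 in WT and 1.44 in KO on the log2 scale (adjusted p = 0.0067 and 0.0107). Acta2, the gene of smooth muscle actin, did not pass in WT (0.14, adjusted p = 0.599) or KO (-0.06, adjusted p = 0.82).

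The osteoblast genes that RUNX2 is known to direct were mostly low. Of 16 osteoblast genes 4 passed the filter on low values in WT and 5 in KO, and 1 rose in WT while 2 rose and 1 fell in KO. Among all genes tested 12.4% rose and 11.7% fell in WT and 15.1% rose and 14.9% fell in KO. Tnfrsf11b, which encodes osteoprotegerin, went from 17.1 to 75.0 RPKM in WT (log2 fold change 2.19, adjusted p = 0.00111 by edgeR) and from 12.99 to 75.4 RPKM in KO (2.62, adjusted p = 0.0026). Alpl, the bone alkaline phosphatase gene, went from 1.08 to 0.0637 RPKM in KO (-3.99, adjusted p = 0.0246). It was kept there through its control mean alone, with control libraries from 0.226 to 1.94 RPKM. In WT it went from 0.788 to 0.0548 RPKM, below the filter in both groups, and was not tested. No read of Ibsp was counted in any library. No gene of the 6 lists passed between KO and WT or in the interaction.

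**Figure D4:**
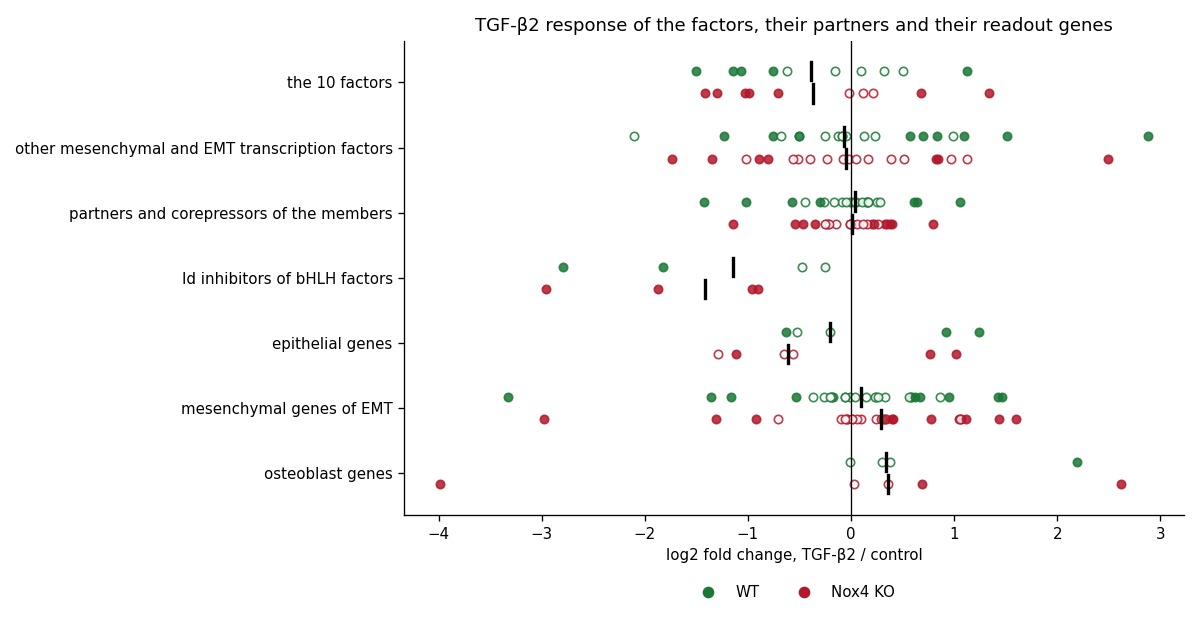
Log2 fold change after TGF-β2 (horizontal axis) of the genes that passed the filter on low values in each list, for WT (upper row of each list, green) and Nox4 KO (lower row, red). Filled circles passed an adjusted p below 0.05 and black bars are medians. The median of the 4 Id genes was the lowest, -1.15 in WT and -1.41 in KO, and the median of the 10 factors was -0.39 and -0.36.

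The genes whose profile over the 12 libraries was most like that of a factor were sought for the 4 factors with a passing change of at least 2-fold, by the root mean square difference of centred log2 CPM (reads scaled to library size) over 10890 genes. For Prrx1 they were Fam129a (0.11) and Cgnl1 (0.13), and for Prrx2 Pnp2 (0.13) and Cdc42ep2 (0.14). For Snai2 they were Gramd4 (0.14) and Add3 (0.16), and for Runx1 Kctd11 (0.16) and Arid3a (0.18). Pnp2 has a near-identical paralogue, Pnp, so its reads are uncertain. All points share libraries, so the likeness is a description only.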

How the data were processed

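Gene counts of 12 libraries were analysed as deposited. The authors sequenced single-end reads, aligned them to GRCm38 with STAR, discarded reads with several hits and used featureCounts to sum the rest over the joined protein-coding exons of each gene (versions 2.4 and 1.4.6 per the labels); the strand setting is not given in the sources used here. RPKM was computed from library totals and GENCODE exon lengths. Genes with a mean of at least 1 RPKM in a compared group were tested with edgeR 4.0.16 (quasi-likelihood, TMM, Benjamini-Hochberg adjustment over all genes tested, R 4.3.3), per genotype or treatment, and the interaction over all 12 libraries. Intervals are 95% from the standard error and cover the spread between libraries. DESeq2 1.42.0, edgeR's exact test, other scalings, filters and omitted libraries were alternatives, and the fits were tested on simulated data. The factors, gene lists and the rule for named genes (at most 4 per list with the largest passing change of at least 2-fold) were chosen with earlier results of these data known. An item that the rule names is not reported here. Same-numbered KO libraries deviated together between control and TGF-β2 (correlations 0.77, 0.69 and 0.75), so the numbers were taken to pair them, from the data and not the labels, and the blocked value is given where it changed a call.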

Additional observations from a re-analysis of the deposited data

How the results depend on the processing

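Prrx1, Prrx2, Snai2 and Twist1 passed in both genotypes under all 8 alternatives of test, scaling, filter, fit and block and in all 6 fits without 1 library, as did Runx1 in WT. In WT, 5 factors passed, 6 in DESeq2, in edgeR's exact test, with all 12 libraries in the fit and with a replicate block (Zeb2 added each time), 4 with a fold limit of 2, and 5 to 8 when single libraries were left out, with 8 only without the second TGF-β2 library. In KO, 7 passed, 8 with a replicate block (Zeb1 added), 4 with a fold limit of 2, and 4 to 8 when single libraries were left out, with 4 without the first TGF-β2 library. Over all genes, 2593 passed in WT and 1232 to 3399 without single libraries, and 3243 passed in KO, 5842 with the block and 1134 to 3513 without single libraries. In WT, numbers 2 and 3 matched best with their own number between control and TGF-β2 (correlations 0.44 and 0.53). Number 1 matched best with number 2 (0.07 with its own), so whether the WT numbers pair the libraries was not settled. Across genotypes, number 3 matched best with its own (0.29 in control, 0.24 after TGF-β2), and numbers 1 and 2 did not. The block changed no call other than those named. The cause of these shifts was not tested. Between genotypes and in the interaction, 0 factors passed under every alternative run. No passing factor changed direction. The uncalled Snai1 value in KO went from 0.12 to -0.03 without the third KO control library, and the Prrx2 difference between genotypes after TGF-β2 from -0.09 to 0.16 without the second WT TGF-β2 library. Other uncalled values near 0 also changed sign. For example, Zeb1 in WT went from 0.10 to -0.03 without the first WT TGF-β2 library, and Zeb2 in KO from -0.02 to 0.10 without the third KO control library. The exact test has no form for the interaction and was not run there.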
